A study of Drosophila melanogaster with 2 samples.

Results

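The left arm of chromosome 3, 3L, carried 380 of the 1723 peaks that the disco protein gave in Drosophila melanogaster embryos. Its peaks were taken as all entries of the deposited peak list whose chromosome name is exactly 3L, so the separate heterochromatic sequence 3LHet is not among them. Chromatin immunoprecipitation followed by sequencing (ChIP-seq) pulls down the DNA bound by a protein and reads it, and a peak is a region where a peak caller found more reads than its background. The series has 2 samples, a disco ChIP whose label names replicates 1 and 2 together and the chromatin input, which the series design names as the control. Both came from untreated whole embryos collected 0 to 8 h after egg laying. The disco antibody is named KW3-disco-D2 in the labels, and the protocol names iso1 (y; bw cn sp) flies or transgenic flies as the source without saying which were used here. Whole embryos of this age span mix all cell types and several stages, so a peak cannot be ascribed to any one of them. The 1 peak list stands for both ChIP replicates, so no spread between replicates and no test could be computed. Input values were not analysed here.

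Disco (disconnected) is a nuclear protein with C2H2 zinc fingers, a domain that commonly binds DNA. It is known for its part in forming the larval visual nerve and, together with the related disco-r, in giving the gnathal segments of the head and the ventral appendages their identity. A transcription factor of this kind binds promoters and enhancers, and genes that control development in flies often have several enhancers spread over long stretches of DNA. On 3L the coordinates run from the tip of the chromosome towards the centromere. All positions are on Release 5 (BDGP5) and count from 1. An annotation and a genome of this release were not used here. Peaks are therefore named by position alone, with no gene or gene feature (exon, intron, UTR) and no sequence.

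Each peak carries 1 score, given by the authors' peak caller on a scale that the list does not name. It may measure significance and not the amount of binding, so scores only rank and describe peaks here and no ratio is formed. Over the 3L peaks the scores ran from 50.1 to 235.61 with a median of 67.52 and quartiles of 57.5725 and 90.5325. The highest score on 3L was above the highest on 2R (219.36) and below those on 3R (321.52), 2L (508.17) and X (748.23). Scores above 100 were reached by 66 peaks of 3L (17.4%, 95% Wilson interval 13.9 to 21.5%) and by 258 of the 1336 peaks on the other 4 large arms (19.3%, 17.3 to 21.5%). Above 150 there were 17 peaks on 3L (4.47%, 2.81 to 7.05%) and 51 on the other arms (3.82%, 2.92 to 4.98%). Both pairs of intervals overlap. These intervals cover counting error alone and take each peak as independent. The depth of the libraries is unknown, since the list gives no reads.

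Of the 50 highest-scoring peaks of the whole list, 13 lay on 3L, while 3R had 17, 2R had 10, and 2L and X had 5 each. Of the 100 highest, 25 lay on 3L. The arm held 22.1% of the 1716 peaks on the 5 large arms (20.2 to 24.2%) and 22.4% of the bases they covered. Between the first and the last peak midpoint, 3L had 16.3 peaks per Mb, against 18.4 on 2R, 15.2 on 3R, 13.1 on 2L and 11.6 on X. The peaks of 3L covered 683 kb, or 2.94% of that span.

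The highest-scoring peak of 3L, at 5848751 to 5851330, had a score of 235.61 and a width of 2580 bp. It belonged to no group: the nearest peak, at 5836150 to 5837833 with a score of 92.62, had its midpoint 13.0 kb away. The second, at 16005242 to 16006400, scored 219.55 although it was only 1159 bp wide, rank 275 of 380 by width. Its nearest neighbour lay 46.4 kb away and scored 61.37. The third, at 14004423 to 14007692, scored 218.57, was 3270 bp wide and sat in a group of 4. These were the only peaks of 3L above 200.

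Ranks 4 to 7 all lay close to other peaks. The peak at 6725407 to 6728161 scored 190.94, the one at 1595809 to 1599910 scored 187.11, the one at 1784688 to 1788747 scored 184.45 and the one at 1713417 to 1715024 scored 180.33. The nearest neighbour was 2.35 kb away for the first of them, 8.91 kb for the second, 3.90 kb for the third and 2.78 kb for the fourth. Ranks 8 to 10 were single peaks again. They lay at 7707123 to 7708198 (score 177.19, width 1076 bp), at 17352307 to 17354317 (score 170.47) and at 13422511 to 13424080 (score 167.77).

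The remaining 10 of the 20 highest scored between 146.02 and 167.73. A group of 3 held the peak at 3159838 to 3163753 (167.73), and another group of 3 held the one at 8458307 to 8460430 (165.65). The peaks at 2434382 to 2436467 (163.09) and at 2438126 to 2440205 (149.7) formed a pair with midpoints 3.74 kb apart, so both members of this pair rank among the 20. Another 3 pairs each had 1 such member, at 3905324 to 3907771 (157.87), at 6197132 to 6203142 (151.86) and at 4111708 to 4113923 (146.02). The others were single, at 5127375 to 5128778 (156.55), at 22543392 to 22544822 (151.7) and at 19811263 to 19813408 (147.73). The most isolated of the 20 was the one at 5127375 to 5128778, whose nearest neighbour lay 308 kb away. The peak ranked 21, just outside this list, scored 143.99, 2.03 below the last one included.

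More of the 20 highest-scoring peaks lay on the side of the tip than on that of the centromere. The point midway between the first and the last peak, at 11.7 Mb, split the 380 peaks into 190 and 190. Of the 20 highest-scoring, 14 lay on the side of the tip (70.0%, 95% Wilson interval 48.1 to 85.5%) and 6 on the side of the centromere, and this interval includes an even split. With the span cut into 5 equal parts of 4.65 Mb, the numbers of peaks from tip to centromere were 101, 59, 73, 64 and 83. The shares above 100 in the same parts were 19.8, 16.9, 20.5, 15.6 and 13.3%, and all 5 Wilson intervals overlapped. The median width was 1833 bp in the part nearest the tip, and between 1365 and 1621 bp in the other parts.

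**Figure D1:**
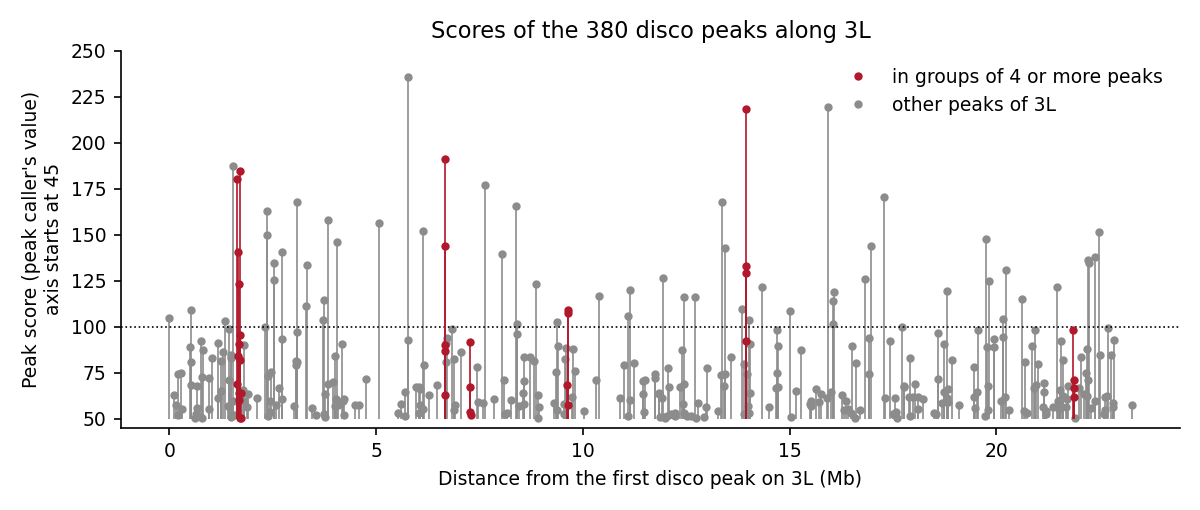
Score of each of the 380 disco peaks on 3L (vertical axis, starting at 45) against its distance in Mb from the first peak of the arm (horizontal axis), with peaks in groups of 4 or more in red and the dotted line at a score of 100. The 3 peaks above 200 lie 5.78, 13.9 and 15.9 Mb from the first peak. Of the 20 highest, 14 lie on the side of the tip (70.0%, 95% Wilson interval 48.1 to 85.5%).

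The first peak of the arm, at 67240 to 68933, had a score of 104.6, and the last, at 23336636 to 23337313, had a score of 57.61. In the 22 whole windows of 1 Mb between 1 and 23 Mb the number of peaks averaged 16.4 ± 6.69 (SD, n = 22 windows) with a median of 16. Over the 87 windows of the other 4 arms it averaged 14.5 ± 6.29 (SD, n = 87 windows) with a median of 14. Of the 22 windows on 3L, 19 held between 10 and 24 peaks. Another 19 peaks lay below 1 Mb and 1 lay above 23 Mb.

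**Figure D2:**
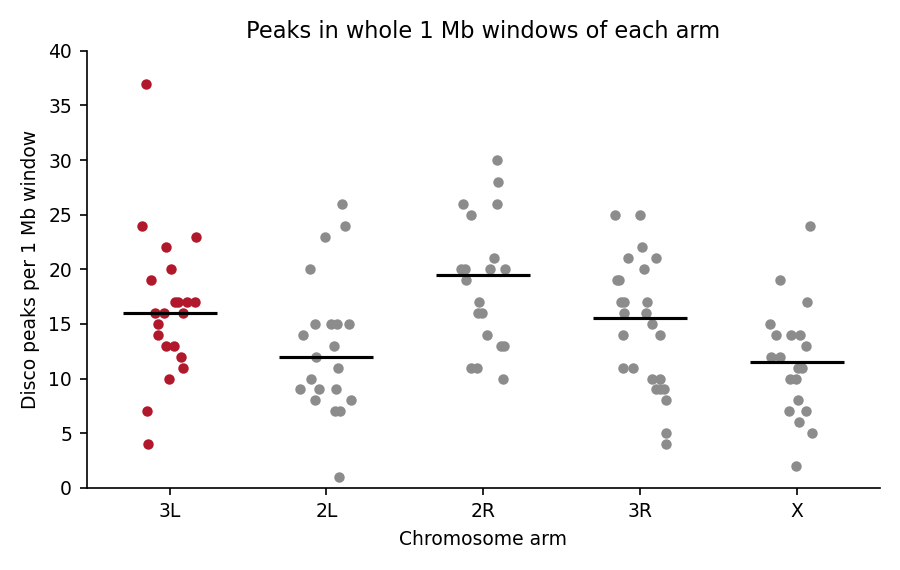
Number of disco peaks in each whole 1 Mb window (points) on 3L in red and on 2L, 2R, 3R and X in grey, with black lines at the medians. One window of 3L, with 37 peaks, stands above every other window plotted, and the median of 3L (16) lies below that of 2R (19.5).

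The densest window, from 1 to 2 Mb, held 37 peaks, against 24 in the next, from 21 to 22 Mb, and 23 in the one from 22 to 23 Mb. Its peaks covered 8.48% of the window, where the other windows ranged from 0.399 to 3.91%. They were also wider, with a median of 2045 bp against 1461 bp over the other 343 peaks of 3L. Their scores did not stand out in the same way: the median was 72.24 against 67.4, and 6 of the 37 (16.2%, 7.65 to 31.1%) scored above 100, against 60 of 343 (17.5%, 13.8 to 21.9%). Another midpoint lay within 10 kb for 25 of the 37 (67.6%, 51.5 to 80.4%) and for 139 of the 343 (40.5%, 35.5 to 45.8%). The window was picked for its number of peaks, which by itself brings more covered bases and nearer neighbours. These 2 values are therefore not separate traits of the window.

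Within this window a stretch of 162 kb, at 1713417 to 1874927, held 17 peaks in 4 separate groups of 3 or more. This is 4.47% of the peaks of 3L in 0.694% of its span. The peaks covered 26.1% of the stretch, 16 of the 17 were wider than the median peak of 3L, and 4 scored above 100. The groups were 25.8, 11.2 and 53.5 kb apart, from the tip inwards. Counts this near to each other are not independent, and how often such a stretch would arise by chance was not tested.

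The sparsest window ran from 10 to 11 Mb with 4 peaks, followed by 5 to 6 Mb with 7 and 7 to 8 Mb with 10. Sparse windows could still hold high scores, since the window from 5 to 6 Mb has the highest-scoring peak of the arm. The longest stretch without a peak, 509 kb at 10461211 to 10969830, lay in the sparsest window. Its flanking peaks scored 116.72 on the side of the tip and 61.23 on the side of the centromere. The next was 460 kb, at 5128779 to 5588581, and starts right after the most isolated of the 20 highest-scoring peaks. The third was 414 kb, at 22922990 to 23336635, and separates the last peak of the arm from all others. Stretches over 200 kb numbered 25 and made up 31.0% of the span on 3L, against 25.9% on 2R, 39.4% on 3R, 48.1% on 2L and 54.1% on X. Reads that cannot be aligned and thin coverage leave empty stretches too, and their part was not tested.

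Peaks were next joined into groups where neighbouring midpoints lay within 10 kb of each other. On 3L, 216 peaks stayed single, 48 pairs and 11 groups of 3 formed, and 8 groups had at least 4 members. The 8 large groups held 35 peaks (9.21% of the arm's peaks, 6.70 to 12.5%). On the other 4 arms 14 groups of 4 or more held 58 of 1336 peaks (4.34%, 3.37 to 5.57%). By arm the share was 5.82% on 2R, 5.44% on 2L, 3.28% on X and 2.86% on 3R. The interval of 3L lies above those of the 4 arms pooled and of 3R and X, and overlaps those of 2R and 2L. The contrast did not hold under other settings. Groups of 3 or more held 17.9% of the peaks on 3L (14.4 to 22.1%), against 19.3% on X, 17.7% on 2R, 12.9% on 3R and 11.6% on 2L. After peaks were merged across gaps under 1 kb, groups of 4 or more held 2.23% of the regions on 3L (8 of 358, 1.14 to 4.35%), against 1.72 to 4.26% on the other arms. Without the densest window the unmerged share on 3L was 6.12% (4.04 to 9.18%). Peaks of 1 group are not independent, so all these intervals are likely too narrow.

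The share of peaks with any neighbour within 10 kb set 3L less apart. It was 43.2% on 3L (164 of 380, 38.3 to 48.2%), against 46.8% on 2R (41.9 to 51.9%), 42.4% on 3R (37.7 to 47.2%), 39.8% on X (33.8 to 46.0%) and 33.3% on 2L (28.2 to 38.9%). Neighbouring midpoints were a median of 31.4 kb apart on 3L and 30.6 kb on the other 4 arms. Distances of 2 to 5 kb made up 11.6% on 3L (8.76 to 15.2%) and 9.16% on the other arms (7.73 to 10.8%), and distances over 100 kb made up 19.8% (16.1 to 24.1%) and 21.3% (19.2 to 23.6%).

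The first of the large groups from the tip, at 1713417 to 1722778, was the shortest at 9.36 kb. Its 4 peaks scored 180.33, 68.6, 84.26 and 140.74 from the tip inwards, so the high scores were at its outer edges. The group at 1748593 to 1761130 had 1 peak above 100, the second, at 123.37, beside scores of 60.24, 90.53 and 63.93. The group of 6, at 1772289 to 1802916, was the longest at 30.6 kb. Its scores were 50.38, 82.12, 95.34, 184.45, 63.86 and 50.31, with the maximum inside and near-minimal values at both ends. The outermost 2 peaks, ranked 376 and 377 of 380 by score, were nonetheless 2795 and 4205 bp wide.

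The group of 5, at 6723500 to 6744340, had scores of 90.04, 190.94, 86.72, 63.12 and 143.94, so it held 2 high peaks with lower ones between them. Its first pair of peaks was separated by only 37 bp, the smallest gap on 3L, and a caller could have reported them as 1. The group at 7332999 to 7357295 had no score above 100, with 53.57, 67.25, 91.42 and 51.95. In the group at 9691422 to 9701876 the middle peaks scored 107.53 and 109.05 and were 58 bp apart, while the outer ones scored 68.51 and 57.22.

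The group at 14000340 to 14018880 held the highest score of any of the 8, with 133.25, 218.57, 92.15 and 129.15. It was also the one with the most peaks above 100, at 3 of 4. The group nearest to the centromere, at 21930114 to 21944283, had scores of 97.98, 61.87, 66.69 and 71.03. In 6 of the 8 groups at least 1 peak scored above 100. Of the 35 peaks in the 8 groups, 11 scored above 100 (31.4%, 18.6 to 48.0%), against 17.4% of all peaks on 3L (13.9 to 21.5%). These intervals overlap. Peaks covered between 40.1 and 73.0% of the length of these groups, and the longest gap inside any of them was 6.09 kb.

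**Figure D3:**
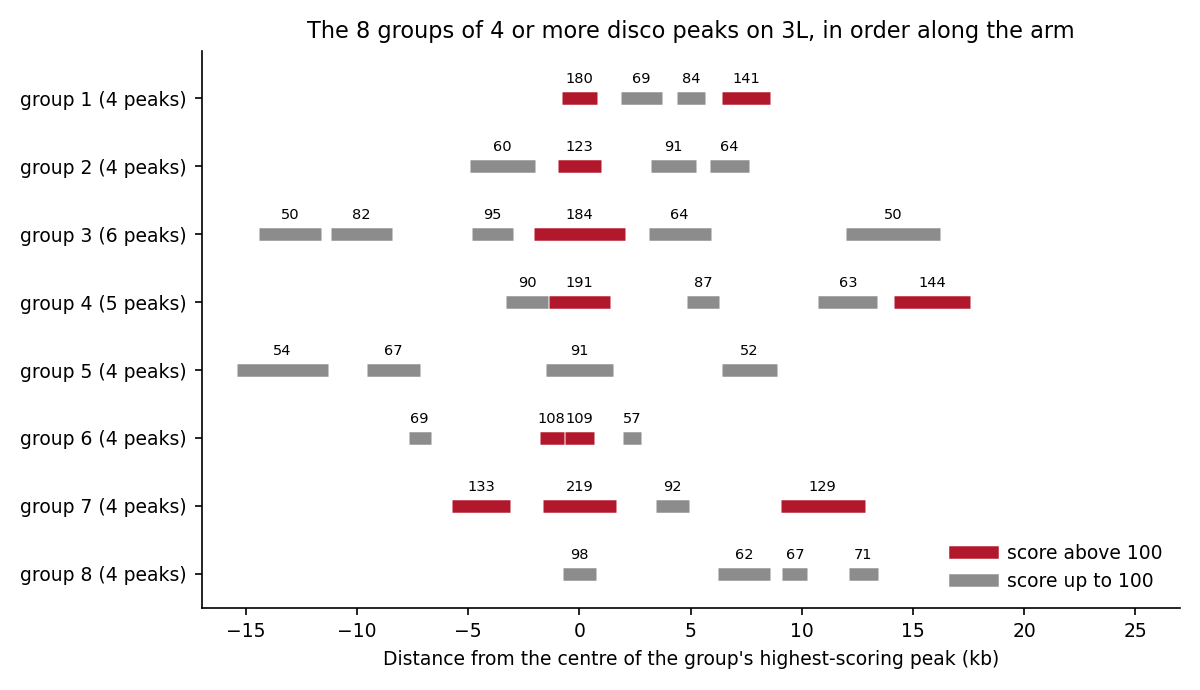
Peaks of the 8 groups of 4 or more on 3L, in order from the tip (top) to the centromere (bottom), drawn as bars from start to end by distance in kb from the centre of the group's highest-scoring peak, with rounded scores above the bars. Red bars score above 100 and grey bars up to 100, and the group of 6 spans the greatest length, 30.6 kb.

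Peaks in larger groups on 3L had a higher median score than single ones. The median score was 80.93 in groups of 3 or more (68 peaks), 67.72 in pairs (96 peaks) and 64.645 among single peaks (216 peaks). On the other 4 arms the same medians were 69.625, 66.965 and 70.17. Scores above 100 were reached by 18 of the 68 peaks in groups of 3 or more on 3L (26.5%, 17.4 to 38.0%) and by 28 of the 216 single peaks (13.0%, 9.12 to 18.1%). On the other arms the shares were 18.8% (14.02 to 24.8%) and 19.97% (17.3 to 22.9%). By arm, the share in groups of 3 or more and among single peaks was 22.4 and 21.4% on 2R, 17.6 and 15.8% on 2L, 21.3 and 18.4% on X, and 12.96 and 23.1% on 3R. It was thus slightly higher in groups of 3 or more on 2L, 2R and X, and lower on 3R, with overlapping intervals on each of these arms. In groups of 2 or more the share was 19.2% on 2R, 12.2% on 2L, 17.5% on X and 21.3% on 3R. Each of these is below the share among single peaks of the same arm. On 3L it was 23.2% (17.4 to 30.2%) in groups of 2 or more. The intervals of grouped and single peaks on 3L overlap slightly. The difference between 3L and the other arms was not tested.

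Width moved with this pattern. The median width on 3L was 2017.5 bp in groups of 3 or more and 1419.5 bp among single peaks. On the other arms the same medians were 1476.5 and 1498.5 bp. Among 3L peaks wider than the median of the 5 arms, 16 of 45 in groups of 3 or more (35.6%, 23.2 to 50.2%) and 17 of 97 single ones (17.5%, 11.2 to 26.3%) scored above 100. Among narrower peaks of 3L the counts were 2 of 23 (8.70%, 2.42 to 26.8%) and 11 of 119 (9.24%, 5.24 to 15.8%). Wide peaks in pairs on 3L reached 38.3% (18 of 47, 25.8 to 52.6%), so the share did not increase from pairs to larger groups. On the other 4 arms together the wide peaks gave 28.7% in groups of 3 or more (20.6 to 38.6%) and 31.4% among single ones (26.9 to 36.2%). By arm the same shares were 35.7% (5 of 14) and 27.7% on 2L and 29.4 and 28.6% on X. They were 29.5 and 34.6% on 2R and 21.1 and 32.8% on 3R.

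High-scoring neighbours were counted next. Of the 66 peaks above 100, 16 had another peak above 100 within 10 kb (24.2%, 15.5 to 35.8%). On X this held for 6 of 44 (13.6%, 6.40 to 26.7%), on 2R for 8 of 77 (10.4%, 5.36 to 19.2%), on 3R for 8 of 94 (8.51%, 4.38 to 15.9%) and on 2L for 2 of 43 (4.65%, 1.28 to 15.5%). Over these 4 arms it held for 24 of 258 (9.30%, 6.33 to 13.5%), and the interval of 3L lies above that one. By arm the interval of 3L overlaps those of X, 2R and 3R and lies just above that of 2L. This measure was chosen after the values had been seen, and the difference was not tested. Without the densest window a high-scoring neighbour was found for 14 of 60 peaks on 3L (23.3%, 14.4 to 35.4%). After merging peaks across gaps under 1 kb it was found for 14 of 65 regions (21.5%, 13.3 to 33.0%), against 4.65 to 9.30% on the other arms. With merging the interval of 3L overlaps those of all 4 other arms.

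The 16 peaks formed 8 pairs spread along the arm, singled out after their values were seen. From the tip they lay at 1713417 to 1722778 (scores 180.33 and 140.74), at 2434382 to 2440205 (163.09 and 149.7), at 2591841 to 2604079 (134.79 and 125.36) and at 8458307 to 8467863 (165.65 and 101.41). Then came 9697311 to 9699743 (107.53 and 109.05), 14000340 to 14007692 (133.25 and 218.57), 16125044 to 16135086 (101.66 and 118.88) and 22291077 to 22298936 (136.15 and 134.52). The midpoints of a pair lay between 1.25 and 9.71 kb apart. In 5 of the 8 pairs the scores differed by less than 20. Both scores of each pair are above 100 by selection, which narrows their range, so this count does not show matched scores.

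**Figure D4:**
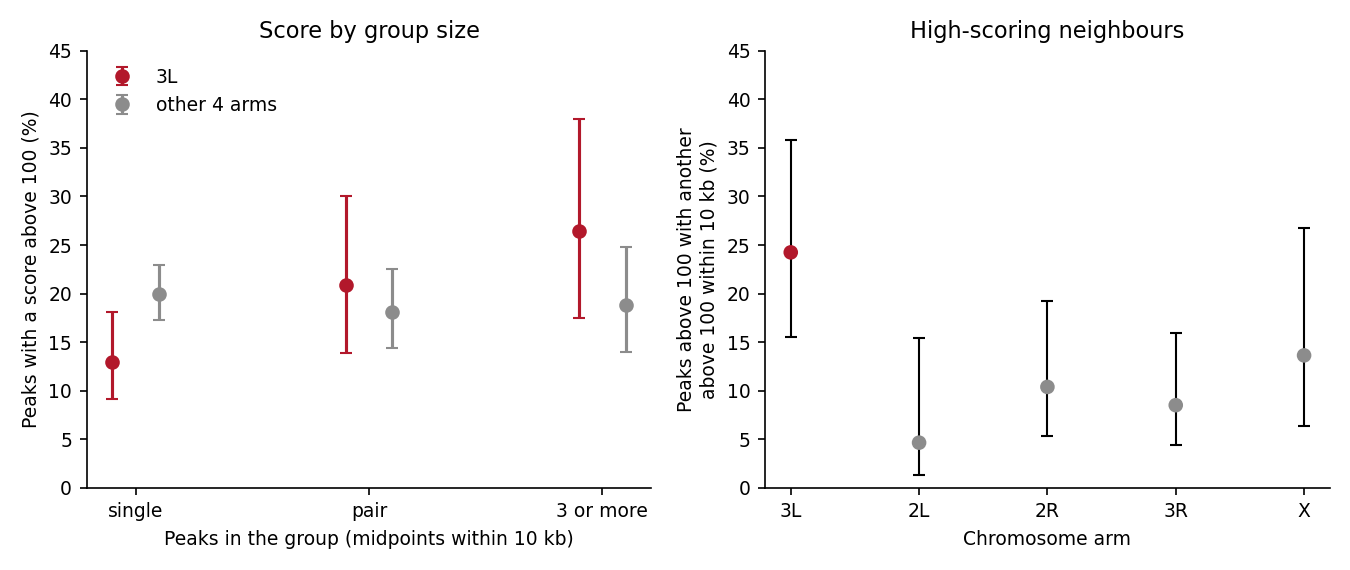
Left, percent of peaks scoring above 100 by the number of peaks in their group, on 3L (red) and on the other 4 large arms together (grey). Right, percent of peaks above 100 with another peak above 100 within 10 kb, by arm. Points are shares and bars are 95% Wilson intervals, and 3L stands at 26.5% (3 or more) and 13.0% (single) on the left and at 24.2% on the right.

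The median peak of 3L was 1515.5 bp wide (quartiles 1121.75 and 2219.25 bp), against 1666 bp on 2R, 1543 bp on 3R, 1525 bp on 2L and 1320.5 bp on X. The widest, at 6197132 to 6203142, measured 6011 bp and ranked 16th by score on the arm with 151.86. The next 4 by width scored no more than 109.31. They lay at 20988413 to 20994266 (5854 bp, score 98.43), at 15329206 to 15335057 (5852 bp, 87.24), at 827674 to 833481 (5808 bp, 92.17) and at 593045 to 598698 (5654 bp, 109.31). The narrowest were 655 bp, at 18756838 to 18757492 (score 58.58), and 674 bp, at 12152152 to 12152825 (67.06).

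Peaks over 3 kb numbered 39 on 3L (10.3%, 7.60 to 13.7%) and 136 on the other arms (10.2%, 8.67 to 11.9%). Of the 39, 14 scored above 100, where 17.4% of all 3L peaks did. Another 5 of the 39 scored no more than 60, where 68.2% of all 3L peaks scored above 60. High scores were thus more frequent among wide peaks, but a wide peak on 3L was not always a high-scoring one. The 66 peaks above 100 had a median width of 2159.5 bp (quartiles 1606.5 and 2732.25 bp), against 1420.5 bp (1045 and 2043 bp) for the 314 others. On the other 4 arms the same medians were 2091.5 and 1419 bp. Across the 380 peaks Spearman's rho between width and score was 0.36, and it ranged from 0.36 to 0.40 on the other arms. This is a description across peaks of 1 list whose width and score come from the same calls.

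Narrow and high-scoring peaks were few. Of the peaks below the median width of 3L, 15 scored above 100 and 4 of them above 150. All 4 are among the 20 highest-scoring and single: those at 16005242 to 16006400, at 7707123 to 7708198, at 5127375 to 5128778 and at 22543392 to 22544822. The nearest neighbour of each lay at least 37.5 kb away.

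**Figure D5:**
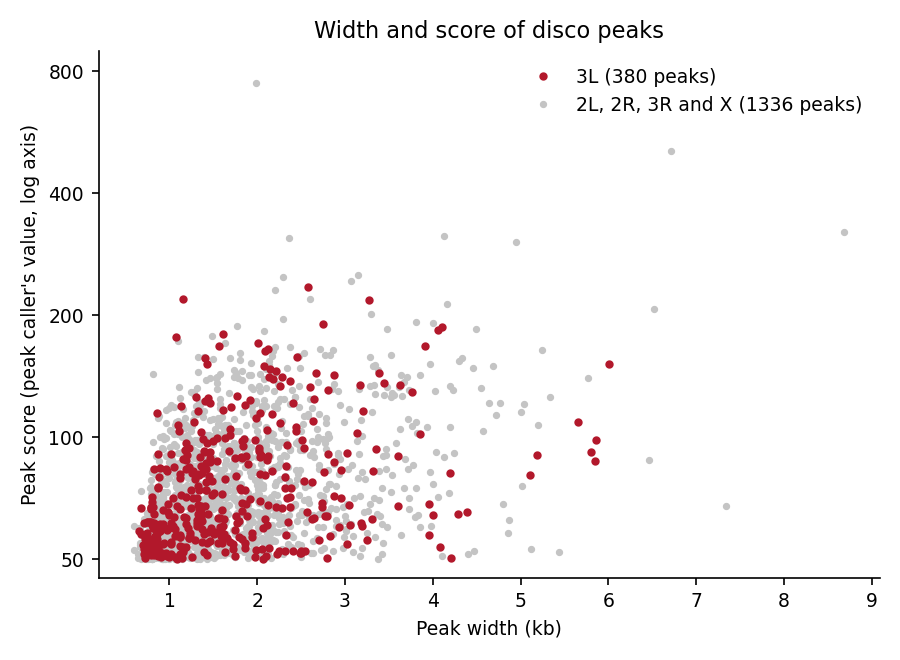
Score of each peak (log axis) against its width in kb, for the 380 peaks of 3L in red and the 1336 peaks of 2L, 2R, 3R and X in grey. Scores tend to be higher in wider peaks (rho 0.36 on 3L), and the highest score on 3L is 235.61, where the list reaches 748.23.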

How the data were processed

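Reads were aligned with Bowtie to BDGP5 (Release 5), per the submitters' processing notes, and MACS made the peak calls, per the file headers. Versions, the threshold, the use of the input and any pooling of replicates were not given in the sources used here. The list deposited by the authors gives a chromosome, start, end, name and score per peak, and the score deposited by the authors has no named scale. Deposited starts count from 0, so printed starts are 1 higher. Peak width, midpoint distances, groups (midpoints chained within 10 kb), counts in whole 1 Mb windows and 95% Wilson intervals were computed with Python 3.11.15, numpy 2.4.6, pandas 2.3.3 and scipy 1.17.1. The functions were checked on simulated peaks with known answers. Depth is unknown. No test was run, since 1 list stands for 2 ChIP replicates.

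Named by rule were the 20 highest-scoring peaks of 3L, all groups of 4 or more, the 5 widest and 2 narrowest peaks, the first and last peak, the 3 longest empty stretches and the 3 densest and 3 sparsest windows. Members, lists and rules were chosen with earlier results of these data known. The planned comparison with genes was not run, because it needs an annotation of Release 5. A Release 6 gene table supplied the names disco and disco-r and nothing else.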

Additional observations from a re-analysis of the deposited data

How the results depend on the processing

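Of 40 recomputed values on 3L, 22 stayed inside the 95% interval of the main value (Wilson for shares, order statistics for medians). Some moves were fixed by the setting, so this count is no measure of robustness. Keeping only the top scores raises the median score, and leaving out peaks lowers the counts per window and lengthens the distances between neighbours. A shorter or longer limit can only lower or raise the share of peaks near another. Merging joins close neighbours, which by itself removes members from groups. The cause of the remaining moves was not tested. Taking the top 50% and the top 25% of the list by score, the median width on 3L was 1826 and 2080 bp, the median score 91.785 and 116.72, the share of peaks near another (10 kb) 29.4 and 27.5%, the median number per 1 Mb window 8 and 3, and the median neighbour distance 71.4 and 172 kb. In the top 50% that share was 31.4% on 2R, above 3L, and 13.2 to 22.3% on the other 3 arms. In the top 25% it was 4.76 to 16.1% on the other 4 arms. There the interval of 3L (19.4 to 37.4%) overlaps those of X (9.004 to 27.2%) and 2R (7.30 to 20.6%). Merging peaks across gaps under 1 kb gave 36.6% with a neighbour within 10 kb, a limit of 5 kb gave 24.5% and one of 50 kb gave 84.2%. The share above 100 in groups of 3 or more, an alternative added after seeing the data, was 39.1% with groups chained at 5 kb. It rests on only 9 of 23 peaks (22.2 to 59.2%), against 15.3% among single peaks. With groups chained at 50 kb the share in groups of 3 or more was 17.5%, against 13.3% among single peaks, so the contrast by group size depends on the limit. Without the densest window it was 27.5%, against 13.2%. The share of peaks in groups of 4 or more, 9.21% in the report, was 2.23% after merging, 2.11% with a limit of 5 kb, 54.7% with 50 kb and 6.12% without the densest window, alternatives likewise added afterwards. The settings for positions relative to genes were not run. No paired analysis was possible because the 2 ChIP replicates share 1 list, which also means that neither could be left out. Since the list holds no read counts, empty stretches and stretches of thin coverage look alike.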

Other observations

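The heterochromatic sequence 3LHet, which was not counted with the arm, held 1 peak at 1229496 to 1230277, with a width of 782 bp and a score of 51.36, rank 1643 of the 1723 peaks of the list.

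Gaps under 1 kb between neighbouring peaks of 3L numbered 22 of 379 (5.80%, 95% Wilson interval 3.86 to 8.63%), against 6.37% on 2R, 5.49% on 3R, 4.94% on X and 4.10% on 2L. In 11 of these 22 pairs neither peak scored above 100, and in 1 both did. The same counts over all neighbouring pairs were not made, and 17.4% of all peaks on 3L scored above 100. The median gap was 508.5 bp and the median difference between the scores of a pair was 26.6. Whether the caller split single regions there was not tested.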
